A study of Mus musculus with 12 samples.

Results

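The interferon response genes examined here were 4 transcription factor genes, Stat2, Irf1, Irf7 and Irf9, and 5 effector genes, Isg15, Ifit1, Ifit3, Rsad2 and Ifih1. Their chromatin accessibility was read from ATAC-seq of mouse bone marrow, a method in which a transposase cuts DNA that is not covered by nucleosomes. A peak, a region with many such cuts, was taken as a member's when its centre lay in the gene or within 10 kb of either gene end, and it went to the nearest member. This gave 64 of the 75281 peaks in the deposited table, 26 at the transcription factor genes and 38 at the effector genes. All 64 had enough counts to be tested. Irf1, Isg15 and Ifih1 had 9 peaks each, Ifit1 had 10, Irf9 had 8, Rsad2 had 7, Irf7 had 5, Stat2 had 4 and Ifit3 had 3.

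The mice were of the inbred strain NZO/HILtJ, which is prone to obesity and diabetes, and the comparison asked how accessibility differed with age. The 4 groups were females at 18 months, males at 18 months, females at 3 months and males at 3 months, with 3 mice in each and no treatment named. Each library came from 1 numbered mouse, so that the spread between libraries includes that between animals. Total counts in peaks ranged from 7668099 to 12756647 per library. The 18-month females were sequenced in run 14 and the 18-month males in run 15, while the 3-month mice were spread over runs 28, 29, 30 and 31. Since 0 of the 6 runs held both ages, age and sequencing run cannot be told apart in any value below.

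The labels call the tissue bone marrow, whereas the protocol text describes a sort for CD8 T cells. Of the 8 T cell marker genes, Cd3d, Cd3g, Lck and Cd5 had a promoter peak, with a summed level of 65.7 to 85.2 CPM (counts scaled to a common library total). Cd3e and Cd8a had no peak within 1 kb of their start. For Cd8b1 and Cd4 no start was available, and no peak had its centre within 1 kb of a gene end. Promoter peaks were present for 6 of 10 erythroid, 9 of 10 neutrophil, 7 of 8 monocyte and macrophage and 8 of 8 B cell markers. The 6 erythroid markers were all lower at 18 months, with a summed level of 89.3 to 122 CPM in the 6 older mice against 183 to 234 in the 6 younger ones. Of the 9 neutrophil markers 7 were higher, at 210 to 255 CPM against 136 to 247. The 247 CPM belonged to male BM-253 at 3 months, and the median of the 3-month libraries was 151 CPM. The part of these shifts in the member peaks was not tested. In bulk marrow, fewer cells of a type and less accessible DNA per cell cannot be told apart.

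Interferons are secreted proteins that warn cells of viral infection. Type I interferon acts through its receptor and Janus kinases to bring STAT2 and IRF9 into a complex that binds the interferon-stimulated response element, while interferon gamma acts through a different site, the gamma-activated sequence. In marrow the pathway is known for its action on blood stem cells and on myeloid cells. Stat2 and Irf9 encode partners in the first complex, Irf1 encodes a factor induced through the gamma-activated sequence, and Irf7 encodes an amplifier of type I interferon transcription that is abundant in plasmacytoid dendritic cells. Among the effectors, Isg15 encodes a ubiquitin-like modifier, Ifit1 and Ifit3 encode RNA-binding antiviral proteins, Rsad2 encodes viperin, which makes a chain-terminating nucleotide, and Ifih1 encodes MDA5, a sensor of double-stranded RNA.

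Isg15 and Rsad2 were the members whose promoter peak passed the test for age, so their promoters are shown whole. These were 2 of 9 promoter peaks, both lower (22.2%), beside 31.2% of 11254 promoter peaks in the table, 514 higher and 2998 lower. The sequences are from RefSeq on GRCm38.p6, run 5′ to 3′ along the gene's strand, and hold 250 bases before the start and 50 from it. Capitals mark the core of the interferon-stimulated response element: GAAA, any 2 bases and GAAA again, searched on both strands, so that on the opposite strand it reads TTTC, any 2 bases and TTTC.
Isg15 (chr4:156200769-156201068, minus strand): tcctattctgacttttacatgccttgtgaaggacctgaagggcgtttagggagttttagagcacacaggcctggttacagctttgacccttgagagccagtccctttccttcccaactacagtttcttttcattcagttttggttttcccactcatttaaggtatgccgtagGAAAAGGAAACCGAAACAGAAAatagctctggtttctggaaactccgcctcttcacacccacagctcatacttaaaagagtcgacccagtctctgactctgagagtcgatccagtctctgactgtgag
Rsad2 (chr12:26456403-26456702, minus strand): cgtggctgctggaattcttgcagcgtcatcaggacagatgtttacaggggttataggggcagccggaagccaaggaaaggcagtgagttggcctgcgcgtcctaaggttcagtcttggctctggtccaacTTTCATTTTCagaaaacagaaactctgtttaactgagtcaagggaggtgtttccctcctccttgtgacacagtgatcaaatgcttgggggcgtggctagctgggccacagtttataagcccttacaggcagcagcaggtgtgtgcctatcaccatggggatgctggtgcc
The Isg15 window held 3 matches, each overlapping its neighbour, the nearest beginning 66 bases before the start. The single Rsad2 match began 120 bases before the start.

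The next stretches are shown because they carry the matches of members whose promoter peak did not pass. In Irf1 the capitals mark TTCNNNGAA, the gamma-activated sequence, which reads the same on both strands.
Ifit1 (chr19:34640770-34640828, plus strand): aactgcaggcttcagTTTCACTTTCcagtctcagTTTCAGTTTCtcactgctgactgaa
Ifit3 (chr19:34583358-34583431, plus strand): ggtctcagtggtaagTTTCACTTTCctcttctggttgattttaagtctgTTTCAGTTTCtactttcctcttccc
Stat2 (chr10:128270261-128270300, plus strand): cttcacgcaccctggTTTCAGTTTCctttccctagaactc
Irf1 (chr11:53769909-53769947, plus strand): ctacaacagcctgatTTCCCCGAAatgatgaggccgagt
Ifit1 and Ifit3 held 2 matches of this core each, Stat2 held 1, and Ifih1 held 1 that began 32 bases after the start. The Irf7 and Irf9 windows held neither motif. For scale, 3.44% of 32851 mouse promoter windows of 300 bases held the core, 0.225% held at least 2 matches, and 8.3% held TTCNNNGAA. A match describes the letters only, and overlap with other motifs was not searched.

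Across the 64 peaks, 13 differed between ages (edgeR quasi-likelihood test, adjusted p under 0.05), 6 higher and 7 lower at 18 months. That is 20.3% of the members, beside 21.0% of the 75164 peaks tested in the whole table. By class, at the transcription factor genes 3 of 26 peaks (11.5%) were higher, all downstream of Irf1, and 0 were lower, with 7 of 26 at unadjusted p under 0.05 in either direction, a level reached by 33.4% of all peaks tested. For lower peaks there limma voom gave 0 and DESeq2 gave 1. At the effector genes 3 of 38 were higher and 7 were lower (26.3%), at Isg15, Ifit1, Ifit3, Rsad2 and Ifih1. Of all peaks tested, 9.43% were called higher and 11.6% lower. The median log2 fold change was -0.02 at the transcription factor peaks and -0.10 at the effector peaks, against 0.02 over all peaks tested. The difference between the classes was not tested. For 34 of the 64 peaks the member is the nearest protein-coding gene, and 6 of these were higher and 3 lower, while the 30 peaks nearer to another gene held 4 lower calls. With total counts in place of TMM factors, 5 transcription factor peaks were higher, and 5 effector peaks were higher and 5 lower, while the whole table turned from 7089 higher and 8687 lower to 11196 higher and 6629 lower.

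The CPM of the 6 older and the 6 younger mice did not overlap at 10 of the 64 peaks, 3 of them higher and 7 lower with age. Of all peaks tested 7.24% were without overlap, 2.20% higher and 5.04% lower. These 10 were 9 effector peaks and 1 transcription factor peak. Peak width moved with direction. Of 22 member peaks at least 1 kb wide 1 was higher and 5 were lower, and of 42 narrower ones 5 were higher and 2 were lower. The whole table had the same pattern, with 1852 higher and 5899 lower calls among wide peaks and 5237 higher and 2788 lower among narrow ones. With offsets fitted to peak width, 10 of the 13 member calls were kept, 3 were lost and 4 were new. That gave 14 calls, beside 18% of all peaks tested.

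**Figure D1:**
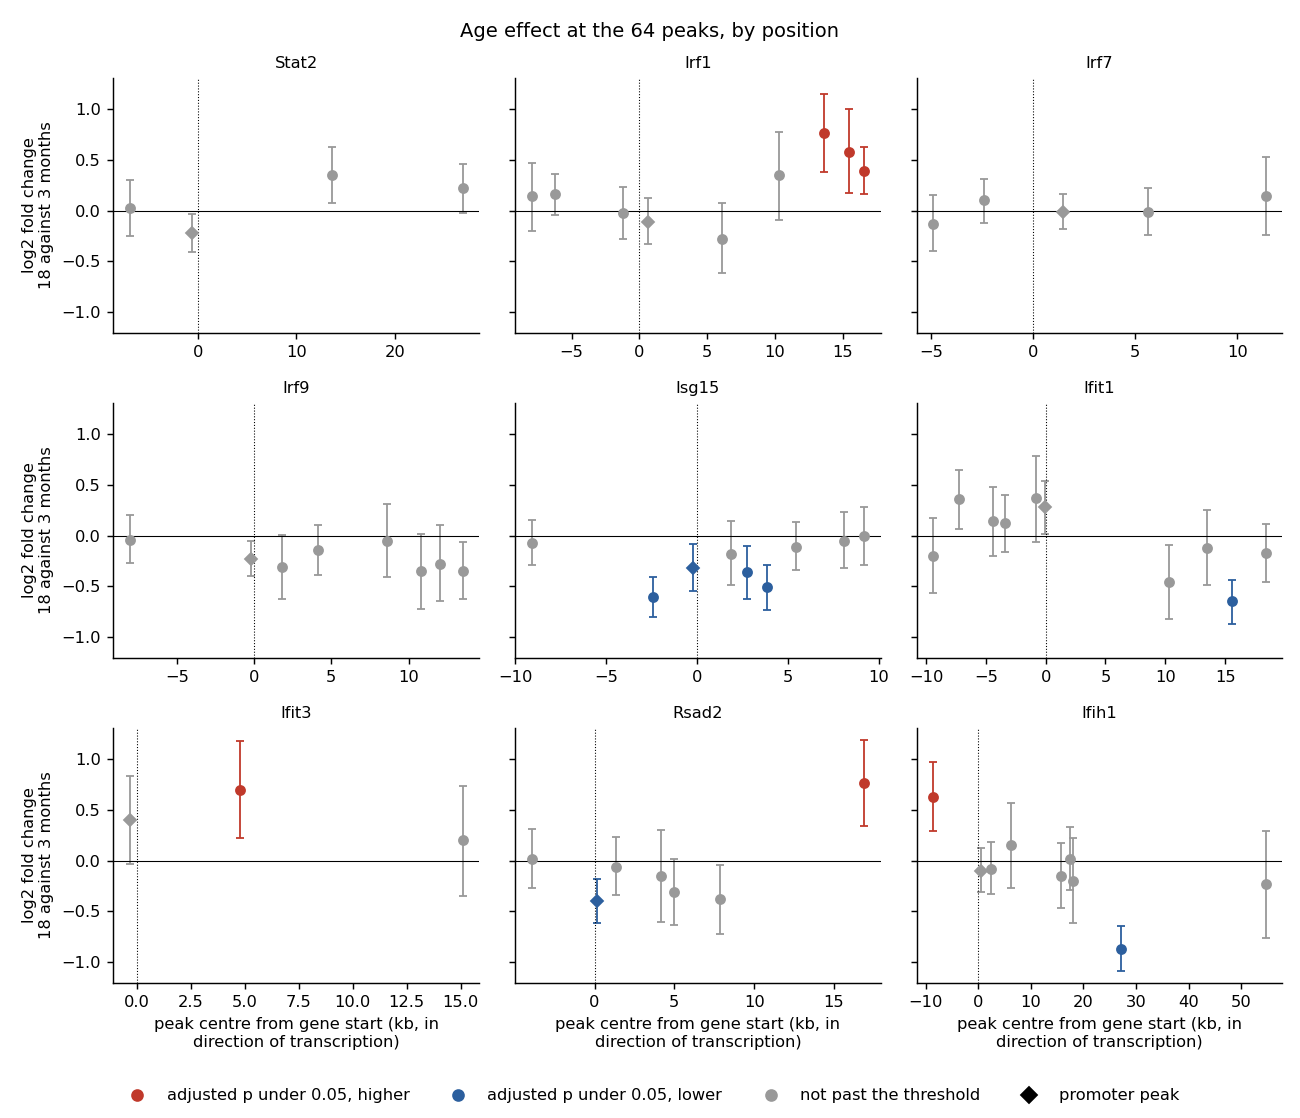
Log2 fold change between 18 and 3 months (vertical axis, bars are 95% confidence intervals) of the 64 peaks against the distance of the peak centre from the gene start in kb, 1 panel per gene, with diamonds for promoter peaks. The 3 called peaks of Irf1 lie 13.6 to 16.6 kb downstream, every Isg15 point lies at or below 0, and the lowest point is the peak 27.2 kb into Ifih1.

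None of the promoter peaks of the 4 transcription factor genes passed the test for age in edgeR, where 31.2% of all promoter peaks did. They were 2387 to 5375 bases wide, against 430 to 1318 bases for the 5 effectors. Per kb of peak, the mean level over the 12 mice was 22.3 CPM at Irf1, 21.1 at Rsad2, 20.0 at Irf9 and 19.9 at Stat2. It was 14.4 at Ifih1, 14.1 at Irf7, 12.8 at Isg15, 10.8 at Ifit1 and 7.67 at Ifit3. In this order the steps from Stat2 to Ifih1, from Isg15 to Ifit1 and from Ifit1 to Ifit3 were larger than the SD between mice of either gene, and the other 5 were not. The order pools the ages: Rsad2 was at 24 and Irf1 at 23.1 CPM per kb at 3 months, whereas at 18 months Irf1 was at 21.5, Stat2 at 18.5, Irf9 at 18.4 and Rsad2 at 18.2. The position of each peak is given as deposited, on mm10.

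Stat2 encodes the STAT that joins IRF9 in the type I response. Its promoter peak (chr10:128268621-128271129) covered 2509 bases, had a centre nearest to Apof among protein-coding genes, and was at 38.4, 46.8 and 55.0 CPM (lowest, median and highest) at 18 months and 48.7, 53.2 and 59.8 CPM at 3 months. The ages overlapped in females and not in males. The log2 fold change was -0.22 (SE 0.0955, n = 12; edgeR adjusted p = 0.0961). In males alone it was -0.40 (edgeR adjusted p = 0.0290), whereas in females it was -0.04 (adjusted p = 0.878). The difference between the sexes did not pass (edgeR interaction, adjusted p = 0.497). Without female BM-36 at 18 months the peak was called for both sexes together, at -0.27 (adjusted p = 0.0384). The value shrank to -0.14 with total counts (adjusted p = 0.213), -0.03 with abundance offsets (adjusted p = 0.848) and -0.04 with width offsets (adjusted p = 0.807). The other 3 Stat2 peaks had log2 fold changes of 0.03 to 0.35 and did not pass. One of them lies inside the gene, 13.6 kb from the start, and had 0.35 (adjusted p = 0.0621).

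Irf1, the gene of a factor that acts downstream of interferon gamma, held the only calls among the transcription factor genes in the model of both sexes. Its promoter peak (chr11:53769488-53771874), which contains the gamma-activated sequence printed above, was at 45.9, 48.7 and 62.0 CPM at 18 months and at 42.5, 49.7 and 76.7 CPM at 3 months. The younger mice spanned the whole range of the older ones, with male BM-253 highest. The age value was a log2 of -0.11 (SE 0.111; edgeR adjusted p = 0.542), and without male BM-253 it was 0.03. Its sign also turned under offsets fitted to abundance, at 0.10, and to width, at 0.07.

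The peaks higher with age at Irf1 lay beyond the gene's far end. The first (chr11:53783409-53783816), with its centre 13.6 kb downstream of the start, was at 4.91, 5.74 and 6.65 CPM in the older mice and 1.90, 3.27 and 4.90 CPM in the younger ones. The ages just failed to overlap. It rose by a log2 of 0.77 (SE 0.193; edgeR adjusted p = 0.00293), and the call held in all 12 fits that left out 1 library. The second (chr11:53785315-53785777), 15.5 kb downstream, had 3.26, 4.71 and 7.15 CPM at 18 months and 2.09, 3.26 and 5.13 CPM at 3 months. The ages overlapped in males and not in females. It rose by a log2 of 0.58 (SE 0.206; edgeR adjusted p = 0.0349). This call was weak, as it held in 5 of the 12 fits and was lost without females BM-35, BM-243, BM-244 or BM-245 or males BM-39, BM-251 or BM-253, with adjusted p of 0.0507 to 0.139. It was also lost with abundance offsets (0.52, adjusted p = 0.0592) and width offsets (0.50, adjusted p = 0.0825).

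The third Irf1 peak (chr11:53785911-53787222), 16.6 kb downstream, was wider and had more counts, with 14, 16.6 and 20.8 CPM at 18 months and 11.4, 12.6 and 14.6 CPM at 3 months. Only the lowest older mouse, male BM-38, fell within the younger range. It rose by a log2 of 0.39 (SE 0.119; edgeR adjusted p = 0.0133), and lost its call only without female BM-36, at 0.32 (adjusted p = 0.0600). For all 3 peaks Irf1 is the nearest protein-coding gene. The remaining 5 Irf1 peaks had log2 fold changes from -0.28 to 0.35 and none passed.

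Irf7 had the flattest peaks of the members. Its promoter peak (chr7:141262270-141267644), the widest of all members at 5375 bases, was at 72.4, 75.4 and 77.8 CPM at 18 months and 72.5, 75.9 and 78.2 CPM at 3 months. The values of the 2 ages lay almost on top of each other. The log2 fold change was -0.01, with a 95% confidence interval of -0.18 to 0.16 (edgeR adjusted p = 0.944). This flatness depends on the scaling: the value was 0.06 with total counts, 0.21 with abundance offsets (adjusted p = 0.0207) and 0.23 with width offsets (adjusted p = 0.0149), which made the peak higher with age. The other 4 Irf7 peaks ranged from -0.13 to 0.14 and did not pass.

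At Irf9, the DNA-binding partner of STAT2, all 8 peaks had values below 0 in the model of both sexes, from -0.35 to -0.04. Of these 0 passed (edgeR, 2 at unadjusted p under 0.05). In females all 8 were below 0, and in males 2 were above 0. The promoter peak (chr14:55602215-55605362) was at 51.4, 58.4 and 62.8 CPM at 18 months and 62.2, 68.4 and 71.2 CPM at 3 months. The highest older mouse just exceeded the lowest younger one, which is male BM-252. The log2 fold change was -0.23 (SE 0.0875; edgeR adjusted p = 0.0576). It passed with DESeq2 (adjusted p = 0.0139), and in edgeR without male BM-252 (adjusted p = 0.0493) or without male BM-253 (adjusted p = 0.0315). It shrank to -0.15 with total counts (adjusted p = 0.139), -0.01 with abundance offsets (adjusted p = 0.913) and -0.02 with width offsets (adjusted p = 0.890). The nearest protein-coding gene to the centre of this peak is Rnf31, and that of the 3 peaks furthest downstream is Rec8. One of these, 13.5 kb downstream, passed in females only, at -0.56 (edgeR adjusted p = 0.0455).

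**Figure D2:**
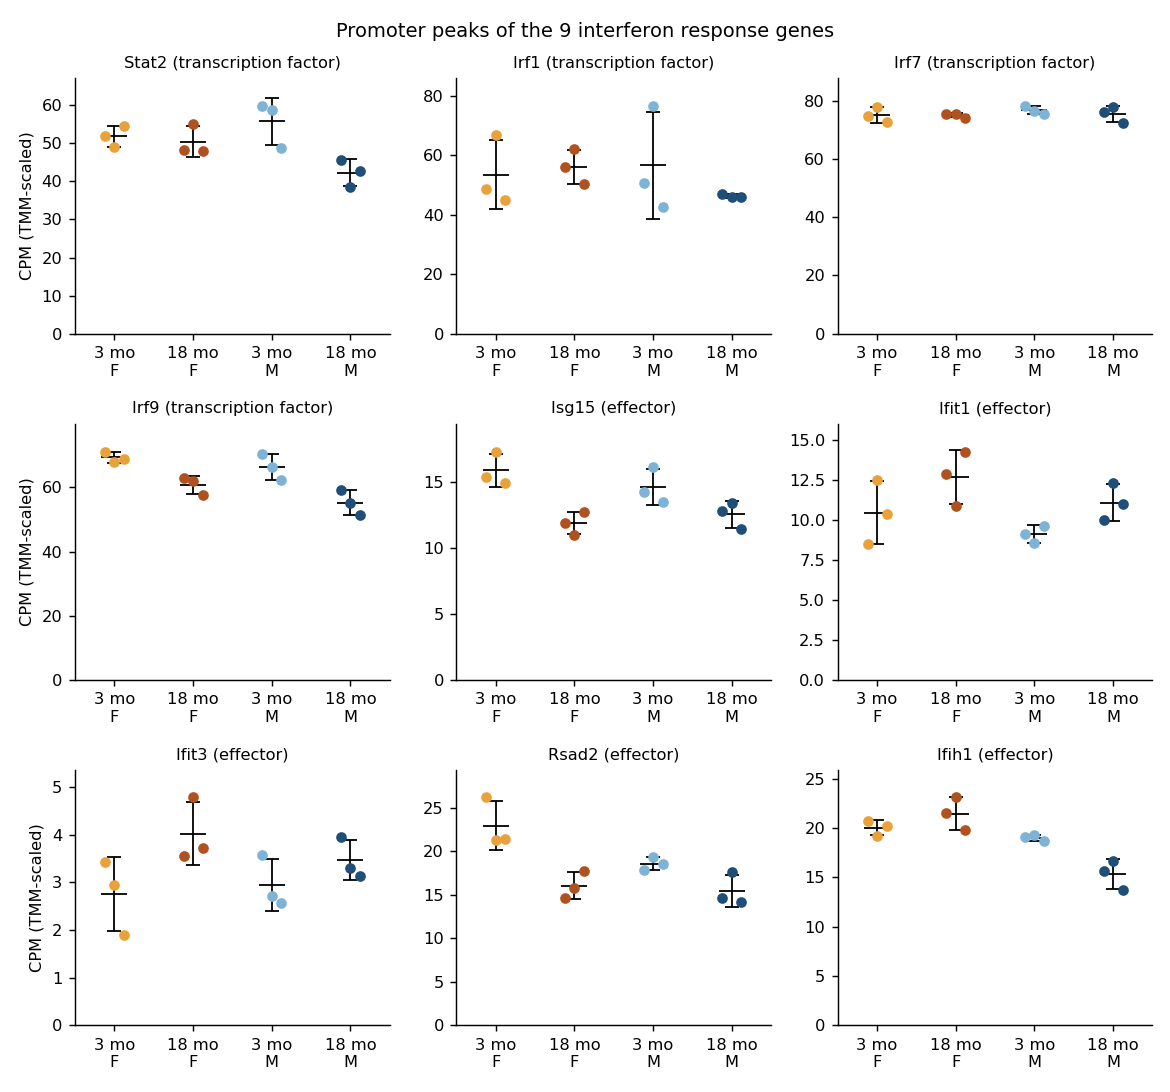
TMM-scaled CPM of the promoter peak of each of the 9 genes (vertical axis from 0) in each library, by age and sex, 3 mice per group, with bars for mean ± SD. Irf7 lies between 72.4 and 78.2 CPM in all 12 mice, and the 18-month values of Isg15 and Rsad2 lie below all 3-month values.

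Among the effectors, Isg15 had the most calls. In the model of both sexes all 9 of its peaks were at or below 0 and 4 fell with age, 3 of them without overlap between the ages. The direction was the same in both sexes at 6 of the 9. A peak 9.21 kb downstream was at -0.36 in females and 0.36 in males (edgeR interaction, adjusted p = 0.362). The promoter peak (chr4:156200493-156201562), which holds the 3 matches printed above, was at 11, 12.3 and 13.4 CPM at 18 months and 13.5, 15.1 and 17.3 CPM at 3 months. The highest older mouse lay just under the lowest younger one. The log2 fold change was -0.32 (SE 0.116; edgeR adjusted p = 0.0445). This call was lost with total counts (-0.24, adjusted p = 0.130) and with width offsets (-0.30, adjusted p = 0.0664), and was kept in 3 of the 12 fits that left out 1 library, those without males BM-39, BM-251 and BM-252. The other fits gave -0.28 to -0.34, with adjusted p of 0.0516 to 0.104. Within each sex the promoter peak did not pass, at -0.42 in females and -0.21 in males (edgeR adjusted p = 0.079 and 0.454).

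The largest fall around Isg15 was at a peak 2.41 kb upstream (chr4:156202097-156204354), which overlaps the start of AW011738 and lies near Perm1. It had 27.8, 34.6 and 36.2 CPM at 18 months against 42.8, 49.7 and 57.8 CPM at 3 months. Both sexes showed the gap. It fell by 0.61 on the log2 scale (SE 0.0967; edgeR adjusted p = 5e-06). Downstream of Isg15, a peak with its centre at 3.86 kb (chr4:156196406-156197511) overlaps a start of Agrn, the gene of the matrix protein agrin. Its CPM was 13, 13.8 and 15.3 at 18 months and 18.1, 20.3 and 21.6 at 3 months, a fall of 0.51 on the log2 scale (SE 0.109; edgeR adjusted p = 0.000468). These 2 calls held in all 12 fits that left out 1 library.

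The fourth Isg15 call was a narrow peak 2.78 kb downstream (chr4:156197809-156198259), nearer to a start of Agrn than to Isg15. It had 11.5, 13.2 and 16.8 CPM at 18 months and 12.5, 17.1 and 25.5 CPM at 3 months. The ages overlapped, and the 25.5 CPM was male BM-253. The value was -0.36 (SE 0.133; edgeR adjusted p = 0.0431), and -0.22 (adjusted p = 0.167) without male BM-253. The call was kept in 3 of the 12 fits, those without females BM-36 and BM-244 and male BM-252, and the fits that lost it had adjusted p of 0.0568 to 0.167. Nor was it called by DESeq2 or limma voom (adjusted p = 0.0649 and 0.0677), or by edgeR with total counts (-0.28, adjusted p = 0.0960) or abundance offsets (-0.34, adjusted p = 0.0517).

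Ifit1 and Ifit3 lie on chromosome 19 within a cluster of related genes, where reads from near-identical stretches could be split between copies. Whether this touched their values was not tested. The Ifit1 promoter peak (chr19:34640313-34641313) also overlaps a start of Ifit1bl2. It had 9.98, 11.7 and 14.3 CPM at 18 months and 8.51, 9.40 and 12.5 CPM at 3 months. The ages overlapped and the log2 fold change was 0.28 (SE 0.128; edgeR adjusted p = 0.114), with the same 0.28 in each sex. It passed with total counts alone (0.35, adjusted p = 0.0436). The Ifit3 promoter peak (chr19:34583003-34583432) had 3.14, 3.64 and 4.78 CPM at 18 months and 1.90, 2.82 and 3.57 CPM at 3 months. Its value of 0.40 (SE 0.212; edgeR adjusted p = 0.181) did not pass. The 95% confidence interval, -0.03 to 0.83, was wide.

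A second Ifit3 peak (chr19:34588160-34588464), inside the gene 4.78 kb from the start, had 2.15, 3.25 and 3.63 CPM at 18 months and 1.47, 1.93 and 2.30 CPM at 3 months. A single older mouse, female BM-36, lay within the younger range. The peak rose by 0.70 on the log2 scale (SE 0.239; edgeR adjusted p = 0.0299). Its call was kept in 4 of the 12 fits that left out 1 library, those without female BM-36, male BM-38, female BM-245 and male BM-253. The other 8 fits gave 0.62 to 0.70 with adjusted p of 0.0504 to 0.0822. The call was also lost with abundance offsets (0.57, adjusted p = 0.0785) and width offsets (0.56, adjusted p = 0.0893).

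The firmest change near Ifit1 was a fall 15.6 kb downstream (chr19:34655580-34657447), in a peak whose centre lies nearest to Ifit1bl1. It had 13.4, 17.6 and 21.9 CPM at 18 months and 23.5, 28.4 and 30.1 CPM at 3 months, and neither sex overlapped. It fell by 0.65 on the log2 scale (SE 0.106; edgeR adjusted p = 6.89e-06). The other 8 Ifit1 peaks apart from the promoter ranged from -0.46 to 0.37 and did not pass.

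At Rsad2 the promoter was less accessible in older mice. The promoter peak (chr12:26455869-26456735), over the sequence printed above, was at 14.2, 15.2 and 17.7 CPM at 18 months and 17.9, 20.3 and 26.2 CPM at 3 months. The ages did not overlap, and the younger females were the highest group. The peak fell by 0.40 on the log2 scale (SE 0.111; edgeR adjusted p = 0.00727), a call kept in all 12 fits that left out 1 library. In females alone the value was -0.53 (edgeR adjusted p = 0.014), and in males alone it was -0.26 and did not pass (adjusted p = 0.293). The interaction did not pass (adjusted p = 0.708). The 4 further peaks inside the gene also had values below 0, from -0.38 to -0.06, and none of them passed, nor did the peak 3.94 kb upstream, at 0.02. The opposite direction was seen beyond the gene's far end, 16.9 kb downstream (chr12:26439367-26439715), where CPM was 4.17, 4.56 and 7.53 at 18 months and 1.59, 3.05 and 4.05 at 3 months. This narrow peak rose by 0.77 on the log2 scale (SE 0.210; edgeR adjusted p = 0.00652). The rise was 1.20 in males (adjusted p = 0.00343) and 0.36 in females (adjusted p = 0.451), and the difference between the sexes did not pass (edgeR interaction, adjusted p = 0.480).

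Ifih1 held the largest fall of all members. It was not at the promoter but in a peak inside the gene (chr2:62618028-62620102), 27.2 kb from the start, that overlaps the start of Gm39839. The CPM was 10.9, 13.8 and 16.2 at 18 months and 21.4, 25.2 and 26.9 at 3 months. A wide gap separated the ages in both sexes. The fall was 0.87 on the log2 scale (SE 0.110; edgeR adjusted p = 3.77e-08), with -0.80 in females and -0.94 in males. A peak 8.59 kb upstream of the start (chr2:62654614-62655076) changed the other way, from 2.64, 4.88 and 5.25 CPM at 3 months to 5.27, 7.03 and 8.43 CPM at 18 months. The ages were barely apart. It rose by 0.63 on the log2 scale (SE 0.169; edgeR adjusted p = 0.00566).

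The Ifih1 promoter peak (chr2:62645165-62646482) was at 13.7, 18.3 and 23.1 CPM at 18 months and 18.7, 19.2 and 20.7 CPM at 3 months. The older mice lay on both sides of the younger ones, with the 3 males below and 2 of the 3 females above. The log2 fold change was -0.10 (SE 0.109; edgeR adjusted p = 0.583), made of 0.10 in females and -0.31 in males, and the interaction did not pass (adjusted p = 0.510). At 18 months the sexes were also in separate sequencing runs, so sex and run cannot be told apart there. A lower age value in males was not particular to Ifih1. Over all 11254 promoter peaks the median log2 fold change was -0.06 in females and -0.23 in males, with the interaction value below 0 at 8339. The summed promoter level of the 8 B cell markers also differed between the older sexes. It was 92.9 to 96.6 CPM in the older females and 63.5 to 66.7 CPM in the older males, against 76.8 to 95.1 CPM in the younger mice. The part of either in the Ifih1 and Stat2 promoter values was not tested. The remaining 6 peaks of Ifih1 ranged from -0.23 to 0.15 and did not pass.

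**Figure D3:**
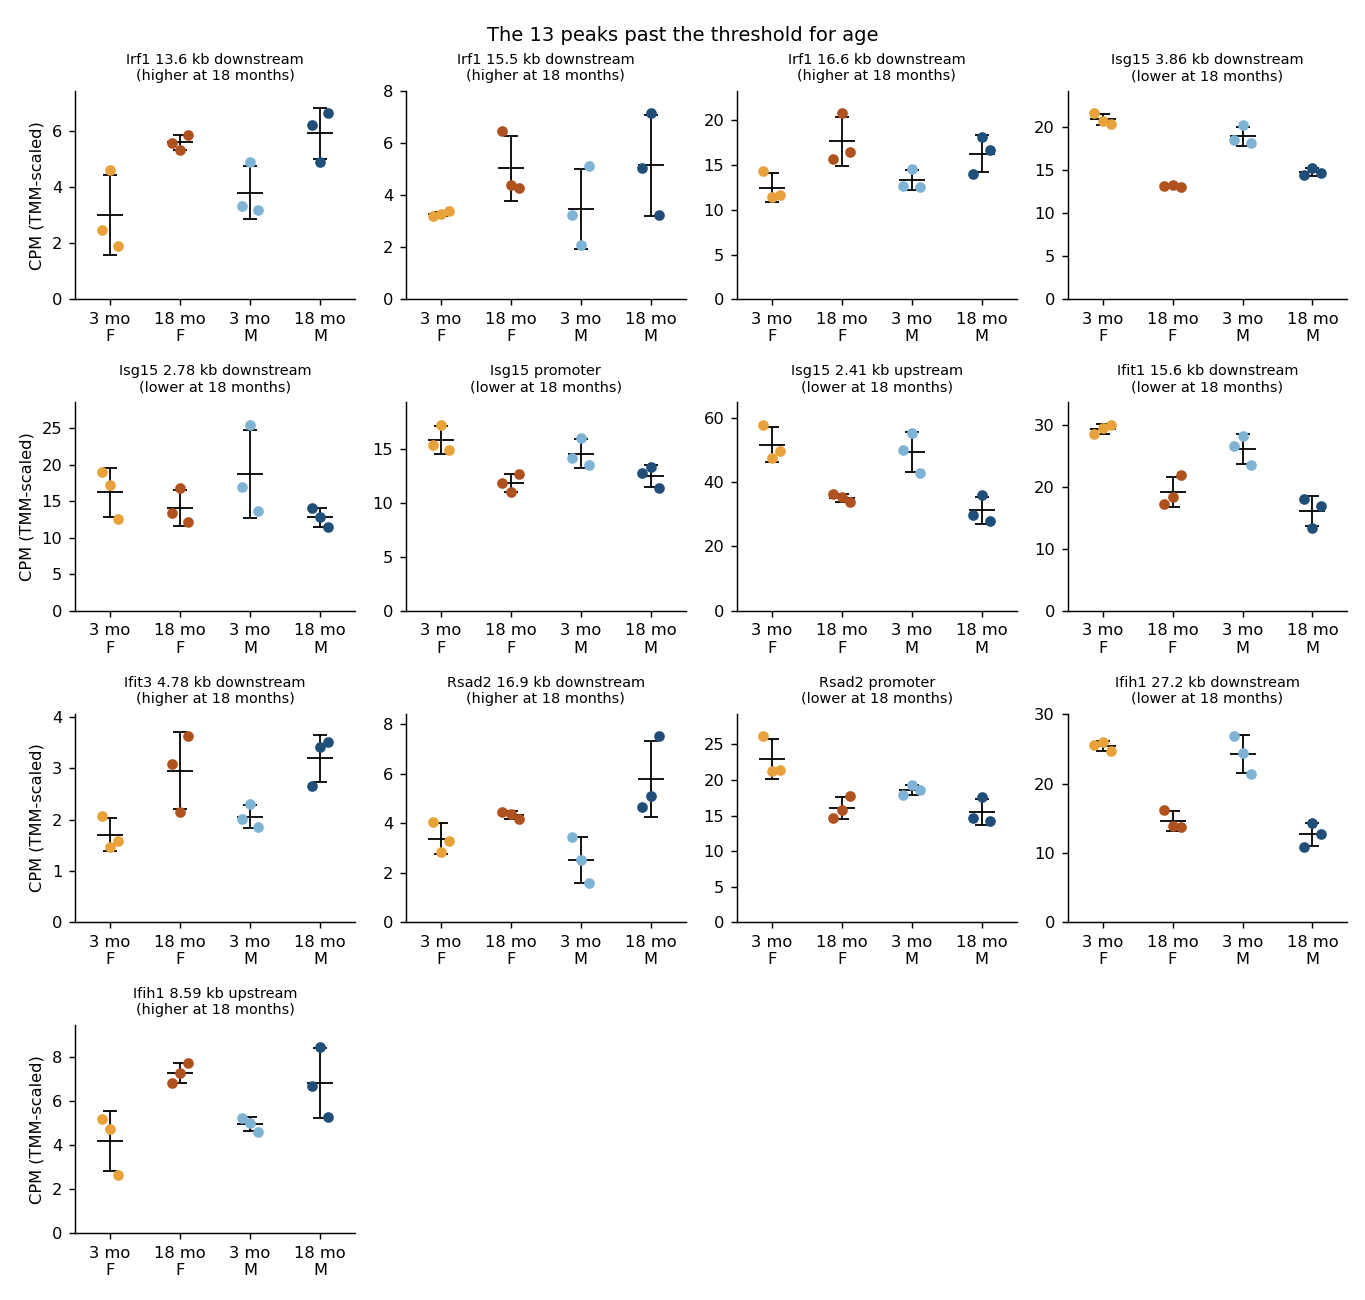
TMM-scaled CPM (vertical axis from 0) of the 13 peaks past the threshold for age in each library, by age and sex, 3 mice per group, with bars for mean ± SD. The 6 peaks higher at 18 months have means of 3.07 to 17 CPM there, and the 7 lower ones have means of 12.2 to 33.1 CPM.

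Taken by sex, 9 of the 64 peaks differed with age in females, 3 higher and 6 lower (edgeR adjusted p under 0.05). Of all peaks tested 11.9% did so, 5.70% higher and 6.20% lower. In males 6 differed, 1 higher and 5 lower, beside 3.21% higher and 8.18% lower among all peaks tested, which is 11.4%. These counts moved with single libraries: the female count was 4 without female BM-36 at 18 months and 5 without female BM-244 at 3 months, and the male count was 3 without male BM-40 at 18 months. The share of all peaks fell in the same fits, to 6.31% and 6.71% in females and to 7.61% in males. The direction was the same in both sexes at 49 of 64 peaks, where it was the same at 49783 of the 75164 peaks tested. No member passed for the age by sex interaction in edgeR, where 5 of 64 had an unadjusted p under 0.05, beside 7515 of the 75164 peaks tested. DESeq2 and limma voom also called 0, with 4 each at that level. The interaction was called at 0.00532% of all peaks, and at 2.16% without male BM-252 at 3 months, where still 0 members passed in edgeR, with 9 at unadjusted p under 0.05, beside 13070 of 75162 peaks. For males against females, edgeR called 0 of 64 with 4 at unadjusted p under 0.05 (7.57% of all peaks reached that level), DESeq2 called 0 with 5, and limma voom called 0 with 4, beside 0.162% of all peaks in edgeR, of which 0.0186% were higher and 0.144% lower in males. Without male BM-253 at 3 months the share of all peaks for sex was 0.754%, again with 0 members called in edgeR and 5 at unadjusted p under 0.05, beside 9646 of 75163 peaks.

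**Figure D4:**
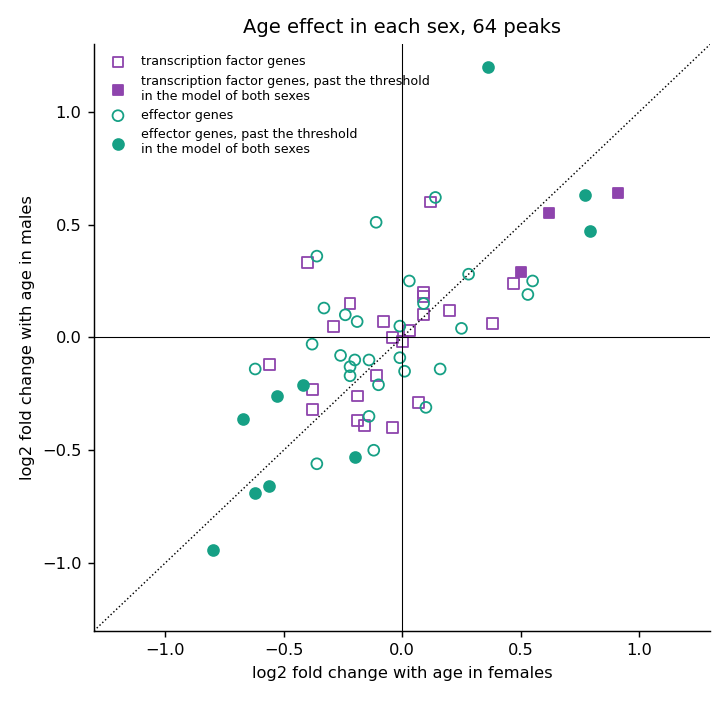
Log2 fold change with age in males (vertical axis) against that in females (horizontal axis) at the 64 peaks, squares for transcription factor genes and circles for effector genes, filled where the peak passed in the model of both sexes. The signs match at 49 peaks, and the highest male value, 1.20, belongs to the downstream peak of Rsad2.

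Of 63 other genes of the pathway, 61 had a peak at their promoter or, where no start was available, at either gene end. The gene end was used for Usp18, Mx2 and Zbp1, among others. Of the 61 genes 6 were higher and 10 lower with age (26.2%, again beside 31.2% of all promoter peaks). This counts genes, so the peak shared by Psmb9 and Tap1, which was lower, is counted for both. Among 7 receptor and kinase genes 3 were lower and the other 4 did not pass. These were Ifnar2 at -0.50, a subunit of the type I receptor, and the kinases Jak1 at -0.49 and Jak2 at -0.40 (edgeR adjusted p = 0.000275, 0.000527 and 0.000742). The 6 further STAT and IRF genes had Irf4 higher, at 0.37, and Irf3 lower, at -0.30 (adjusted p = 0.0217 and 0.0109). Irf3 is the factor that first switches on the interferon beta gene, and Irf4 is a lymphoid and plasma cell factor. Among 7 sensor genes Ddx58, which encodes RIG-I, was higher at 0.40, and Mavs, the adaptor that RIG-I and MDA5 share, was lower at -0.42 (adjusted p = 0.0332 and 0.000619). Of the 7 feedback inhibitors Usp18, which removes ISG15 from proteins, was lower at -0.57 (adjusted p = 4.93e-05), and the other 6 did not pass.

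The 36 further effector genes went both ways. Of 34 with a promoter peak, on 33 distinct peaks, 4 genes were higher and 4 were lower, with a median of 0.00. The count of lower genes takes the peak shared by Psmb9 and Tap1 for both. The higher ones were Ifitm1 at 0.43, Trim30a at 0.37 and Mx2 at 0.36, joined by Zbp1 at 0.31, which was named after its value was seen. The lower ones were Igtp at -0.38, Cmpk2 at -0.37, and Psmb9 and Tap1, which share 1 peak at -0.28. Cmpk2 lies beside Rsad2, while Psmb9 and Tap1 serve antigen processing. Over all 382 peaks within 10 kb of these 63 genes, 22 were higher and 34 lower (14.7%, beside 21.0% of all peaks tested), with a median of 0.03. The core in the promoter did not go with a share of calls far from that of other promoters: 470 promoter peaks of genes with a match held 32 higher and 109 lower calls, which is 30.0%.

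**Figure D5:**
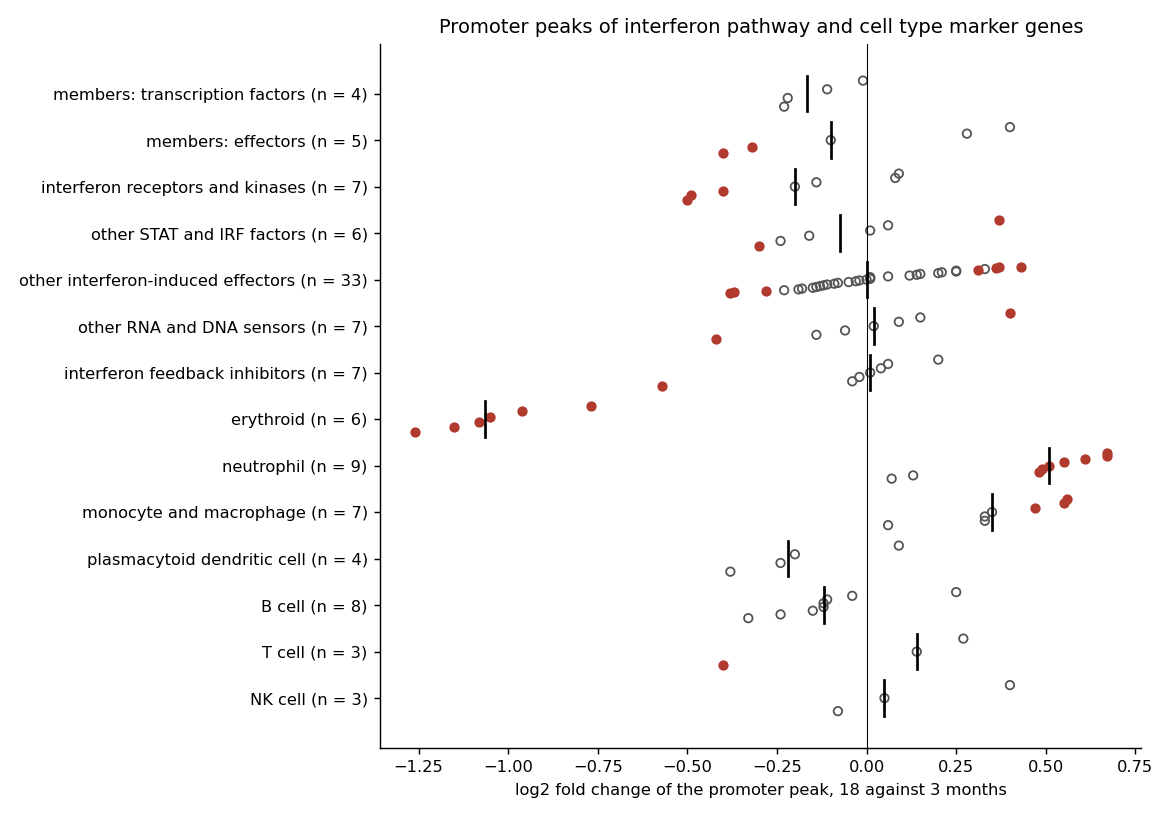
Log2 fold change of promoter peaks between 18 and 3 months (horizontal axis) for the members, 5 interferon pathway lists and 7 cell type marker lists (rows), filled where the edgeR adjusted p was under 0.05, with a bar at each median and 1 point for the peak that Psmb9 and Tap1 share. The member points lie between -0.40 and 0.40, the erythroid markers between -1.26 and -0.77, and the neutrophil markers between 0.07 and 0.67.

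The other cell type markers were nearer to 0. Of 7 monocyte and macrophage markers 3 were higher with age, at a summed 50.8 to 68.2 CPM against 43.9 to 50.0. The markers of plasmacytoid dendritic cells (4 with a peak, -0.38 to 0.09), B cells (8, -0.33 to 0.25) and NK cells (3, -0.08 to 0.40) did not pass for age in both sexes together, although the B cell sum differed between the older females and males as given above. Of the 4 T cell markers with a peak Lck was lower, at -0.40 (edgeR adjusted p = 0.00113), and 3 did not pass, Cd5 at 0.14 and Cd3d and Cd3g at 0.27 in a shared peak. The plasmacytoid markers, of the cell type known for high Irf7, summed to 35.1 to 47.7 CPM at 18 months and 42.7 to 53.5 CPM at 3 months.

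The genes whose promoter peaks were most like the average of each class of members were found from the mean profile over the 12 libraries, each peak centred on its own mean log2 CPM. For the 4 transcription factor promoters these were Akt1s1, with a root-mean-square difference of 0.0439, the peak shared by Rab26os and Traf7, with 0.0502, and Gadd45g, with 0.0505. The median of 9349 candidate peaks was 0.179. For the 5 effector promoters they were Mrpl58 at 0.0630, Phldb3 at 0.0745 and Fuz at 0.0746, where the median was 0.215. This effector average stands for no single member, since Isg15 and Rsad2 had values below 0 with age and Ifit1 and Ifit3 had values above 0. The 6 peaks did not pass for age, with log2 fold changes from -0.17 to -0.06 (edgeR).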

How the data were processed

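ATAC-seq read counts over consensus peaks in 12 bone marrow libraries were used as deposited. Per the submitters' processing notes, Trimmomatic, BWA, MACS2, DiffBind and edgeR were named, with build mm10 and no roles or versions. Duplicate removal, the shift of read ends and the consensus rule are not given in the sources used here. The counts deposited by the authors were whole numbers with a lowest value of 1, which compresses fold changes of the weakest peaks. In 1 peak the start stood in scientific notation.

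Libraries were mapped to groups by age and sex in the labels, with mouse numbers as replicates. Genes were placed by RefSeq positions on GRCm38.p6. A promoter peak overlapped or lay nearest to the RefSeq start, at most 1 kb away. For a gene absent from the promoter table it was the strongest peak on average within 1 kb of a gene end. Of 130 listed genes 129 were matched, and 1 further gene of the pathway lists is not reported here. The text names every member's promoter peak, each further member peak past the threshold, and up to 3 genes per pathway list and direction, with Zbp1 and Tap1 added after their values were seen. The members and lists were chosen with earlier results of these data known.

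The 75164 peaks above 1 CPM in 2 or more libraries were scaled by TMM factors (0.9289 to 1.054). The quasi-likelihood F test of edgeR 4.0.16 in R 4.3.3 was run on an additive model for age and sex, and on 4 group means for effects within a sex and the interaction. P-values were adjusted by Benjamini-Hochberg over all tested peaks, with a threshold of 0.05, and standard errors came from the F statistic. Printed CPM is TMM-scaled. For a library, 3 counts correspond to 0.235 to 0.391 CPM, and intervals cover counting error and the spread between mice, not duplicate reads. No 2 libraries held identical values, and replicates differed by a chi-square of 2.17 to 6.08 per degree of freedom. The scripts were tested on simulated data. Alternatives were total counts, RLE factors, offsets fitted by loess (span 0.3) to abundance or width, other filters, DESeq2 1.42.0, limma 3.58.1 voom, no sex term, each sex alone, other gene assignments and leaving out each library.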

Additional observations from a re-analysis of the deposited data

Results flagged for a closer look

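In 40 groups, the 6 libraries of each age at 20 named peaks, 2 libraries stood apart from the others by a gap past Dixon's critical share of the group's range, and chance alone flags about 1 group in 20. At the peak 16.9 kb downstream of Rsad2, male BM-40 at 18 months had 7.53 CPM, where the nearest of the other 5 had 5.12 CPM. This library was also the shallowest, with 7668099 counts, and the rise at this peak was still called without it. At the peak 8.59 kb upstream of Ifih1, female BM-244 at 3 months had 2.64 CPM, where the nearest of the others had 4.60 CPM, and the rise with age was also called without it.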

How the results depend on the processing

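The age count of 13 peaks lay between 12 and 15 under the 9 other scalings, filters and tests run on all 64 peaks. In those settings 18% to 23.7% of all peaks tested were called. The member count was 7 of 35 peaks within 3 kb of a gene. The same window left 0 higher peaks at the transcription factor genes and 1 at the effector genes, and total counts gave 5 higher peaks in each class. Lower transcription factor peaks numbered 1 with width offsets and 1 with DESeq2. Lower effector peaks numbered 3 when the member had to be the nearest protein-coding gene. The Irf1 promoter turned to 0.10 with abundance offsets and 0.07 with width offsets. The Irf7 promoter turned to 0.06 with total counts, 0.21 with abundance offsets and 0.23 with width offsets. The Ifih1 promoter, at -0.10, was at -0.02 with total counts. The cause of these changes was not tested. Leaving out each library in turn gave 9 to 14 peaks for age, beside 16.3% to 24.9% of all peaks tested. By class these were 2 to 3 higher and 0 to 2 lower at the transcription factor genes, and 2 to 4 higher and 5 to 7 lower at the effector genes. The same fits gave 4 to 10 peaks in females, beside 6.24% to 15.7% of all peaks, and 3 to 9 in males, beside 6% to 16.2%. They gave 0 for sex and for the interaction. For the Irf1 promoter they gave -0.18 to 0.03, and for the Irf7 promoter -0.03 to 0.00. Lower transcription factor peaks appeared without female BM-36 (1), male BM-252 (1) and male BM-253 (2). Of 420 recomputed values of the 20 named peaks, 364 kept direction and side of the threshold, 44 lost their call, 5 gained one in the same direction and 7 changed sign, 2 of which, at the Irf7 promoter, were called. No analysis paired by mouse was possible because replicate numbers are mouse numbers and no number is shared between groups. Runs 29 and 31 each held a female and a male at 3 months, and pairing by run was not used for sex. Of the 6 calls higher with age 5 had 18-month means of only 3.07 to 7.02 CPM, and 3 of these 5 were kept in all 12 fits that left out 1 library and in all 9 other settings.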
